A study of Mus musculus and Homo sapiens with 21 samples.

Results

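H9 human embryonic stem cells grown for 4 days among mouse epiblast stem cells in the presence of doxycycline were compared with H9 cells grown without mouse cells and without doxycycline. The comparison covered 10091 human genes, which carried a gene symbol and reached 10 CPM (the count of a gene scaled to a fixed library total) in at least 3 of the 6 libraries, of 62754 entries in the human table. Of these genes, 9199 reached 10 CPM in all 6 libraries. A further 185 reached it in the 3 doxycycline co-cultures and in no separate culture, 153 in the 3 separate cultures and in no doxycycline co-culture, and 554 in another mixture of libraries.

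The study sequenced RNA from 21 libraries in groups of 3, of which 9 were human, after separate culture or co-culture of human and mouse pluripotent cells. The mouse cells were epiblast stem cells of the C57BL/6 strain, and the series describes stable cell lines in which doxycycline turns on Cas13, an RNA-guided nuclease that cuts RNA. No guide RNA or target is named in the labels. The human cells were primed H9, an established embryonic stem cell line whose labels name no transgene.

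Of the 3 groups used here, the separate cultures held H9 cells with no doxycycline, the doxycycline co-cultures held H9 and mouse cells with doxycycline, and the doxycycline-free co-cultures held both cell types without it. All 3 groups shared the NBFR medium, a layer of mouse embryonic fibroblast feeders and collection on day 4. Co-cultures were seeded with 4 human cells for each mouse cell. No human separate culture with doxycycline was analysed here, so in this comparison the drug itself, the induced mouse cells and the presence of a second species cannot be told apart. Whether the replicates of a group were independent cultures is not stated in the labels. Each p-value therefore reflects only how far these samples spread, and that spread may be technical.

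Primed human embryonic stem cells correspond to the epiblast shortly before gastrulation. They are kept pluripotent by FGF and NODAL signals, and when WNT and BMP signals rise they start to express primitive streak genes such as TBXT, followed by posterior genes of the CDX and HOX families. Cells short of amino acids or under other stress phosphorylate the translation factor eIF2, which raises the transcription factor ATF4 and its targets in amino acid synthesis and transport. When oxygen is low, HIF proteins raise glycolytic enzymes and matrix-modifying enzymes.

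Library totals ran from 117563318 to 139033477 counts in the doxycycline co-cultures, from 124255656 to 132208422 in the separate cultures and from 126853797 to 157320157 in the doxycycline-free co-cultures. On the first principal component of log2(CPM + 1), which held 54.1% of the variance of the 9 human libraries, the separate cultures lay between -48.7 and -44.7, the doxycycline co-cultures between -8.26 and 0.894, and the doxycycline-free co-cultures between 44.0 and 56.5. The second component, with 17.7% of the variance, set the doxycycline co-cultures (30.4 to 33.5) apart from the other two groups (-18.6 to -8.20). The 3 libraries of each group lay together.

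The identity of the cells was checked against marker genes. Of 8 markers of human pluripotent cells, 7 were present in every library, and ZFP42, which encodes the zinc finger factor REX1, stayed under 1 CPM in all 9. The 8 fibroblast markers summed to between 283 and 320 CPM in the doxycycline co-cultures to between 512 and 530 CPM in the separate cultures and to between 619 and 728 CPM in the doxycycline-free co-cultures, with DCN at 0 in every library and COL3A1 at no more than 0.0161 CPM in the doxycycline co-cultures. All 6 macrophage markers stayed under 1 CPM in every library.

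The sources used here do not state how the reads of the 2 species were told apart. In the mouse libraries of the same doxycycline co-cultures the mouse Col3a1 stood at 98.7 to 107 CPM and Sox1 at 40.8 to 44.7 CPM, while the human COL3A1 and SOX1 were at no more than 0.0161 and 0.0647 CPM in the human libraries. Mouse T, the counterpart of TBXT, stood at 322 to 341 CPM, while human TBXT stood at 14.1 to 17.2 CPM. Beyond these values, the part of mouse reads in the results was not tested.

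At an adjusted p under 0.05 (edgeR quasi-likelihood test, Benjamini-Hochberg over all genes tested), 4951 of the 10091 genes differed between doxycycline co-culture and separate culture, or 49.1%, against 28.4% of all 24153 genes tested. Of the 10091 genes, 1979 were higher in co-culture (19.6%, against 13.3% of all genes tested) and 2972 were lower (29.5%, against 15.1%), so 40.0% of the calls were upward. This share was 50.0% with upper quartile scaling and 51.0% when only genes at 10 CPM or more entered the fit. The shift was at least 2-fold for 132 of the higher and 198 of the lower genes. The CPM values of the 3 and 3 libraries did not overlap for 2738 genes on the higher side (27.1%, against 22.7% of all genes tested) and 3506 on the lower side (34.7%, against 21.4%). In bulk libraries such as these, fewer cells of a type and less RNA per cell cannot be told apart.

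**Figure D1:**
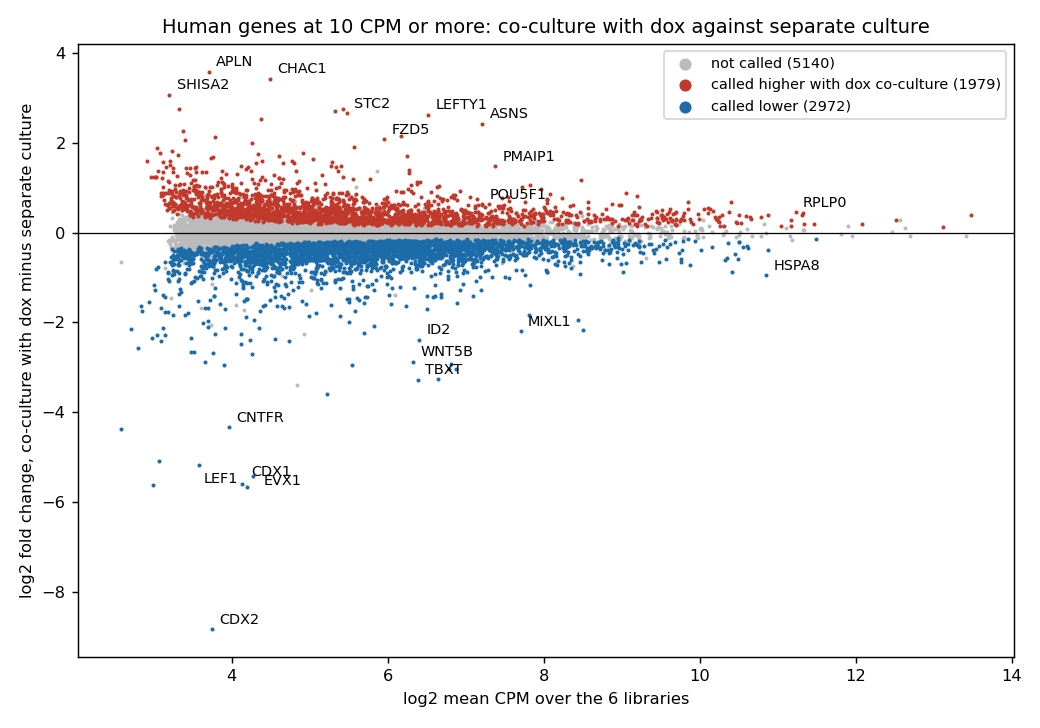
Log2 fold change between doxycycline co-culture and separate culture (vertical axis) against log2 of the mean CPM over the 6 libraries (horizontal axis) for the 10091 human genes; each point is 1 gene, red for the 1979 called higher, blue for the 2972 called lower and grey for the rest. The lower edge includes CDX2, LEF1, CDX1 and EVX1 below -5, and the upper edge APLN, CHAC1 and SHISA2 above 3.

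Among the genes that fell furthest were LEF1, the homeobox genes CDX1, CDX2 and EVX1, and TBXT. LEF1, a DNA-binding partner of beta-catenin in WNT signalling, stood at 36.2, 36.0 and 36.0 CPM in separate cultures and at 0.612, 1.02 and 0.522 CPM in doxycycline co-cultures. The fitted log2 fold change was -5.66 ± 0.23 (SE, n = 3 and 3; edgeR adjusted p = 4.77e-07). Genes with the largest changes were named only if their 3 and 3 libraries did not overlap, so that is no added support.

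CDX1, a homeobox factor of the posterior body axis, went from 32.5, 33.8 and 36.9 CPM to 0.408, 0.913 and 0.844 CPM, a log2 fold change of -5.59 ± 0.26. CDX2, its close relative, stood at 24.8, 25.4 and 29.9 CPM in separate cultures and at 0.187, 0 and 0 CPM in doxycycline co-cultures. As 2 of those libraries held no count of CDX2, its fitted log2 fold change of -8.83 ± 1.03 (edgeR adjusted p = 0.00419) depends on the small count that the fit adds. EVX1, a homeobox factor of the posterior streak, was at 38.9, 39.0 and 35.3 CPM against 0.995, 0.503 and 1.18 CPM. Of the libraries compared, only separate cultures held LEF1 and these 3 genes at 10 CPM. The filter thus kept them through the group where they were high. Further genes described below for which this holds include MSX1, WNT3A, WNT8A, RSPO3, CNTFR, EPOP, LRRC55, FGF4, ID4, ZEB2, FRZB, SLCO2A1 and IGFBP6. PCAT14, a long noncoding RNA, fell from 180, 186 and 176 CPM to 18.8, 19.5 and 19.5 CPM (log2 fold change -3.25 ± 0.05).

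TBXT, which encodes Brachyury, the defining factor of the streak, stood at 148, 148 and 160 CPM in separate cultures. In doxycycline co-cultures it was at 17.2, 14.1 and 16.5 CPM, and the log2 fold change was -3.28 ± 0.08 (edgeR adjusted p = 2.53e-08). In doxycycline-free co-cultures TBXT was at 36.1, 29.6 and 36.7 CPM. The 3 groups thus formed 3 separate levels, with separate culture the highest and doxycycline co-culture the lowest.

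MIXL1, a homeobox factor of mesendoderm, fell from 343, 354 and 326 CPM to 81.9, 68.9 and 75.8 CPM. APLNR, the receptor for apelin, which marks early mesoderm, fell from 201, 191 and 199 CPM to 23.6, 23.0 and 26.4 CPM, with a log2 fold change of -3.04 ± 0.06. MSX1, a homeobox factor that responds to BMP, went from 11.1, 10.9 and 12.3 CPM to 0.519, 0.748 and 0.402 CPM. The groups of MIXL1 and APLNR did not overlap, and the naming of MSX1 required this.

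Of 22 tested primitive streak and mesoderm genes, 18 fell and 2 rose. Their median log2 fold change was -1.82, beside 0.02 over all genes tested. The 2 that rose, GSC (4.77 ± 1.12 to 7.74 ± 0.426 CPM, mean ± SD, n = 3) and LHX1 (6.15 ± 0.444 to 9.11 ± 1.44 CPM), encode factors of the anterior streak and organizer, lay under 10 CPM, and are named here after their values were seen. In doxycycline-free co-culture, measured against the same 3 separate cultures, 11 streak genes fell and 4 rose, with a median of -0.59. The direct test of doxycycline against doxycycline-free co-culture called 16 of the 22 lower with doxycycline and none higher.

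Of 10 tested HOX genes, which set position along the body axis, 5 fell and none rose with doxycycline.

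**Figure D2:**
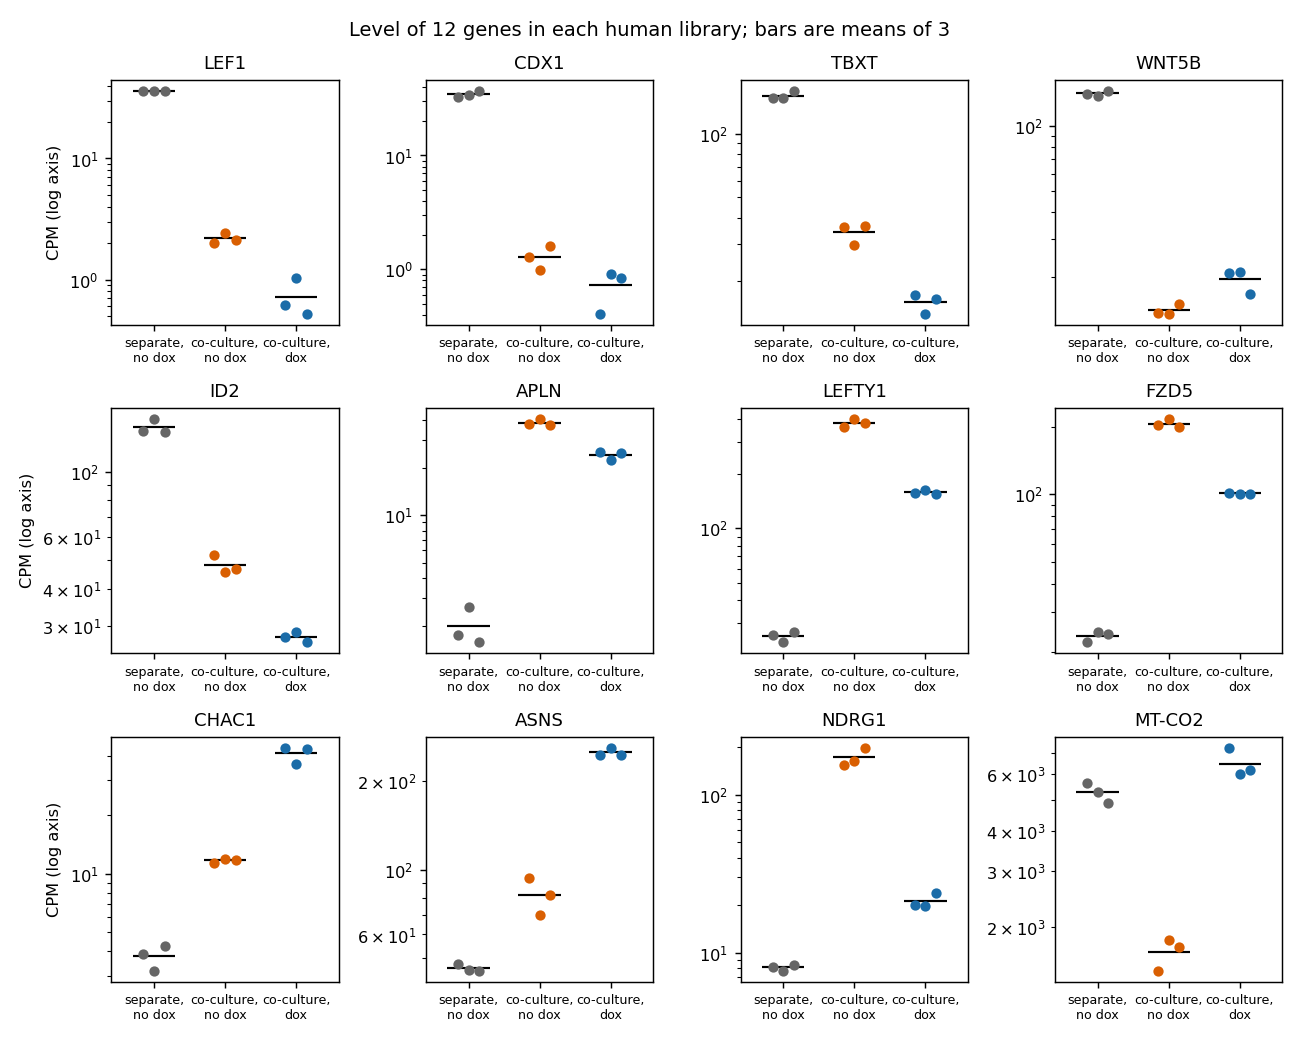
Level of 12 genes in CPM (vertical axes, logarithmic) in each of the 9 human libraries; each point is 1 library, columns are the 3 groups and black bars are group means. LEF1, CDX1, TBXT, WNT5B and ID2 were low in both co-cultures, APLN, LEFTY1 and FZD5 were high in both, CHAC1 and ASNS were highest in doxycycline co-culture, and NDRG1 and MT-CO2 in doxycycline co-culture lay nearer to separate than to doxycycline-free co-culture.

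Genes of the WNT pathway fell at several of its steps. Among ligands, WNT5B, which signals mostly without beta-catenin, was at 141, 138 and 145 CPM in separate cultures and at 20.7, 21.1 and 16.6 CPM in doxycycline co-cultures, a log2 fold change of -2.88 ± 0.10 (edgeR adjusted p = 1.6e-07). WNT8A went from 23.7, 20.8 and 25.4 CPM to 0.961, 0.101 and 0.932 CPM. WNT3A went from 16.7, 13.3 and 16.6 CPM to 0.400, 0 and 0.579 CPM, with a log2 fold change of -5.61 ± 1.19 (edgeR adjusted p = 0.0287). The naming of WNT3A required groups without overlap. Its call was lost in 5 of the 6 fits that left out a library and in 1 other setting (adjusted p up to 0.101).

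RSPO3, a secreted protein that strengthens WNT signals at the receptor, stood at 16.7, 17.0 and 15.02 CPM in separate cultures and at 0.230, 0.928 and 0.281 CPM in doxycycline co-cultures. NKD1, an intracellular feedback inhibitor that WNT itself induces, went from 80.2, 82.3 and 85.1 CPM to 11.1, 11.1 and 10.1 CPM, a log2 fold change of -2.96 ± 0.07. Doxycycline-free co-cultures held NKD1 at 11.7, 13.2 and 12.2 CPM, and the direct test between the co-cultures did not call it (log2 difference -0.22 ± 0.14, edgeR adjusted p = 0.31). Both co-cultures therefore lay well below separate culture, with neighbouring ranges.

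FZD5, a WNT receptor, moved the other way, from 22.03, 24.4 and 23.8 CPM to 102, 101 and 101 CPM, a log2 fold change of 2.08 ± 0.06 (edgeR adjusted p = 5.79e-08). FZD7, another receptor, rose from 141, 143 and 133 CPM to 283, 284 and 288 CPM. In doxycycline-free co-cultures FZD5 was at 203, 215 and 198 CPM and FZD7 at 205, 205 and 204 CPM. FZD5 was thus highest without doxycycline and FZD7 highest with it, and the direct test called both (log2 differences of -1.05 ± 0.07 and 0.46 ± 0.06).

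Of 21 tested WNT ligands, feedback and target genes, 13 fell and 5 rose in doxycycline co-culture, with a median of -1.57. The 5 that rose were the receptors FZD5 and FZD7, the secreted antagonists DKK4 and SFRP1, and TCF7L1, a factor that represses WNT targets in pluripotent cells; the last 3 are named after their values were seen. SFRP1 went from 31.8 ± 1.75 to 58.5 ± 0.691 CPM and TCF7L1 from 21.2 ± 1.54 to 46.1 ± 3.92 CPM (mean ± SD, n = 3). In doxycycline-free co-culture 11 fell and 6 rose, with a median of -0.57. FRZB, a further secreted WNT antagonist, fell from 11.4, 10.5 and 10.6 CPM to 3.66, 3.65 and 3.24 CPM with doxycycline but stood at 19.7, 15.7 and 16.7 CPM without it, above separate culture.

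In the NODAL pathway, LEFTY1, a secreted NODAL antagonist that NODAL induces, stood at 25.7, 23.5 and 26.8 CPM in separate cultures. It reached 157, 164 and 155 CPM in doxycycline co-cultures and 362, 400 and 383 CPM in doxycycline-free co-cultures. The log2 fold change was 2.62 ± 0.07 with doxycycline and 3.88 ± 0.08 without (edgeR adjusted p = 2.29e-08 and 2.88e-08). The 3 groups did not overlap, and doxycycline co-culture lay in between. As LEFTY1 was among the genes named for the largest changes, its lack of overlap between doxycycline co-culture and separate culture is no added support.

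NODAL, the ligand, fell from 152, 152 and 143 CPM to 103, 99.0 and 102 CPM, a log2 fold change of -0.58 ± 0.05. TDGF1, the co-receptor of NODAL, rose from 425, 439 and 402 CPM to 767, 759 and 730 CPM. Ligand and co-receptor therefore moved in opposite directions, and neither had overlapping groups.

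Among targets of BMP signalling, ID2, an inhibitor of basic helix-loop-helix factors, fell from 138, 151 and 137 CPM to 27.5, 28.5 and 26.4 CPM, a log2 fold change of -2.39 ± 0.06. ID4, of the same family, fell from 38.4, 40.4 and 39.2 CPM to 8.52, 7.31 and 7.16 CPM. Both were also low in doxycycline-free co-culture, at 45.5 to 52.3 CPM for ID2 and 12.5 to 14.9 CPM for ID4, and both were lower still with doxycycline by the direct test. Of 22 NODAL and BMP genes tested, 6 rose and 9 fell with doxycycline (median -0.35), while 13 rose and 4 fell without it (median 0.53).

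Immediate early genes, which respond within minutes to growth factor signals through ERK, were lower. FOS, a subunit of the AP-1 factor, fell from 150, 149 and 142 CPM to 54.8, 59.6 and 59.5 CPM, and EGR1, a zinc finger factor, from 73.0, 73.9 and 73.1 CPM to 27.3, 24.0 and 27.5 CPM. FOSB fell from 38.7, 37.0 and 40.3 CPM to 12.5, 12.7 and 11.5 CPM, a log2 fold change of -1.68 ± 0.08 (edgeR adjusted p = 1.06e-06). All 3 were lower still in doxycycline-free co-culture, with FOSB at 0.978, 1.30 and 2.80 CPM and EGR1 at 8.60, 11.3 and 10.3 CPM. KLF10, by contrast, was lower with doxycycline (35.3, 37.5 and 35.2 CPM) than without it (74.9, 69.6 and 63.8 CPM).

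Of 31 early response and feedback genes tested, 22 fell and 3 rose with doxycycline, with a median of -0.49. The 3 that rose, named after their values were seen, were JUND, the ERK feedback inhibitor SPRY1 and PHLDA1. Without doxycycline 18 fell and 9 rose.

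The core pluripotency factors rose modestly. POU5F1, which encodes OCT4, went from 116, 111 and 119 CPM to 163, 187 and 194 CPM, a log2 fold change of 0.63 ± 0.07 (edgeR adjusted p = 0.000114). NANOG went from 88.6, 88.5 and 85.6 CPM to 133, 133 and 130 CPM, and SOX2 from 134, 139 and 144 CPM to 200, 202 and 218 CPM. None of the 3 had overlapping groups. SOX2 differed between the co-cultures: without doxycycline it stood at 150, 154 and 138 CPM, overlapping with separate culture, and the direct test gave a log2 difference of 0.46 ± 0.07.

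OTX2, a factor of the anterior epiblast, rose from 12.6, 12.8 and 12.8 CPM to 40.1, 34.8 and 38.4 CPM, and to 101, 82.0 and 86.0 CPM without doxycycline. PRDM14, a repressor of differentiation genes, stood at 14.4, 15.6 and 17.6 CPM in separate cultures, 24.7, 18.2 and 30.1 CPM with doxycycline and 5.75, 4.82 and 10.0 CPM without it. The rise of PRDM14 with doxycycline (log2 fold change 0.59 ± 0.16, edgeR adjusted p = 0.0207) was lost in 5 settings, 4 of them fits without one library, with adjusted p up to 0.134.

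Of 19 core pluripotency genes tested, 9 rose and 4 fell (median 0.30), and of 15 primed-state genes 8 rose and 3 fell (median 0.34). Of 11 naive-state genes tested 2 rose and 5 fell, but just 3 of the list reached 10 CPM. Of those, NODAL fell as above, and FGF4, a growth factor gene, fell from 17.7, 21.1 and 20.6 CPM to 4.08, 2.25 and 3.26 CPM. Of 16 endoderm genes tested 7 rose and 2 fell. Among the 6 of that list that reached 10 CPM in at least 3 of the 6 libraries, 2 rose and 1 fell, with a median of -0.01. The one that fell was LAMB1, from 157, 149 and 167 CPM to 107, 101 and 117 CPM. SOX17, the defining factor of definitive endoderm, rose from 6.60, 6.66 and 5.97 CPM to 20.1, 20.5 and 21.8 CPM, and stood at 75.0, 89.8 and 80.1 CPM without doxycycline. Of 15 neuroectoderm genes tested 2 rose and 6 fell, with most near or under 1 CPM.

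The genes that rose furthest came from several groups. APLN, which encodes the apelin peptide, rose from 1.75, 2.63 and 1.58 CPM to 25.2, 22.4 and 24.8 CPM, a log2 fold change of 3.58 ± 0.19 (edgeR adjusted p = 2.48e-06), while its receptor gene APLNR fell as given above. SHISA2, an inhibitor of WNT and FGF receptor maturation, rose from 1.42, 2.46 and 1.91 CPM to 19.4, 14.7 and 15.4 CPM. Both were higher without doxycycline, APLN at 37.7, 40.3 and 37.3 CPM and SHISA2 at 68.2, 73.0 and 58.0 CPM. For both genes all 3 groups were apart. Their naming required this of doxycycline co-culture and separate culture, so that part is no added support.

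GPR176, an orphan G protein-coupled receptor, rose from 9.80, 10.9 and 10.7 CPM to 73.2, 62.1 and 73.3 CPM, and CLDN7, a tight junction protein, from 5.85, 6.43 and 5.85 CPM to 38.3, 35.9 and 32.5 CPM. ESPN, an actin-bundling protein, rose from 2.68, 2.22 and 2.73 CPM to 15.5, 17.5 and 19.5 CPM. GPR176 and CLDN7 were higher with doxycycline than without it, and ESPN was lower (log2 differences of 1.36 ± 0.13, 0.50 ± 0.11 and -0.76 ± 0.12). Of the libraries compared, only doxycycline co-cultures held APLN, SHISA2, CLDN7 and ESPN at 10 CPM, so the filter kept them through the group where they were high. Other risers for which this holds include CHAC1, SOX17, NDRG1, GATM, SNTB1, BNC2, GNA14, RAMP2, KRTCAP3, CBX7, SPSB3, CITED4 and TXNRD2.

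Targets of ATF4 had the highest median of the 33 gene lists examined. CHAC1, an enzyme that degrades glutathione, rose from 3.88, 3.20 and 4.25 CPM to 43.8, 36.4 and 43.5 CPM, a log2 fold change of 3.43 ± 0.13 (edgeR adjusted p = 3.08e-07). ASNS, asparagine synthetase, rose from 47.5, 45.3 and 45.2 CPM to 246, 260 and 247 CPM, a log2 fold change of 2.43 ± 0.05. Without doxycycline CHAC1 stood at 11.4, 11.9 and 11.7 CPM and ASNS at 93.7, 70.2 and 81.7 CPM. Both were therefore higher in either co-culture than in separate culture and highest with doxycycline.

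STC2, a secreted glycoprotein induced by stress, rose from 10.5, 13.01 and 12.4 CPM to 74.0, 71.4 and 85.7 CPM. PCK2, the mitochondrial phosphoenolpyruvate carboxykinase, rose from 9.82, 11.6 and 11.2 CPM to 63.4, 68.8 and 92.9 CPM. ATF4 itself rose from 360, 351 and 370 CPM to 509, 536 and 536 CPM, a log2 fold change of 0.52 ± 0.05, and stood at 342, 293 and 360 CPM without doxycycline. The ATF4 values with doxycycline lay above all others, and the direct test between co-cultures gave a log2 difference of 0.64 ± 0.08 (edgeR adjusted p = 0.000333).

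Of 30 ATF4 targets tested, 22 rose and 1 fell, with a median of 0.77. The one that fell, named after its values were seen, was PPP1R15A (54.6 to 32.0 CPM in the means), which encodes GADD34, a subunit that directs a phosphatase to eIF2. Against the same separate cultures 12 rose and 10 fell without doxycycline, with a median of 0.09. The direct test called 22 of the 30 higher with doxycycline and 1 lower. The summed level of the list was 3768 to 3808 CPM in separate cultures, 5589 to 5792 CPM with doxycycline and 3453 to 3805 CPM without it.

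**Figure D3:**
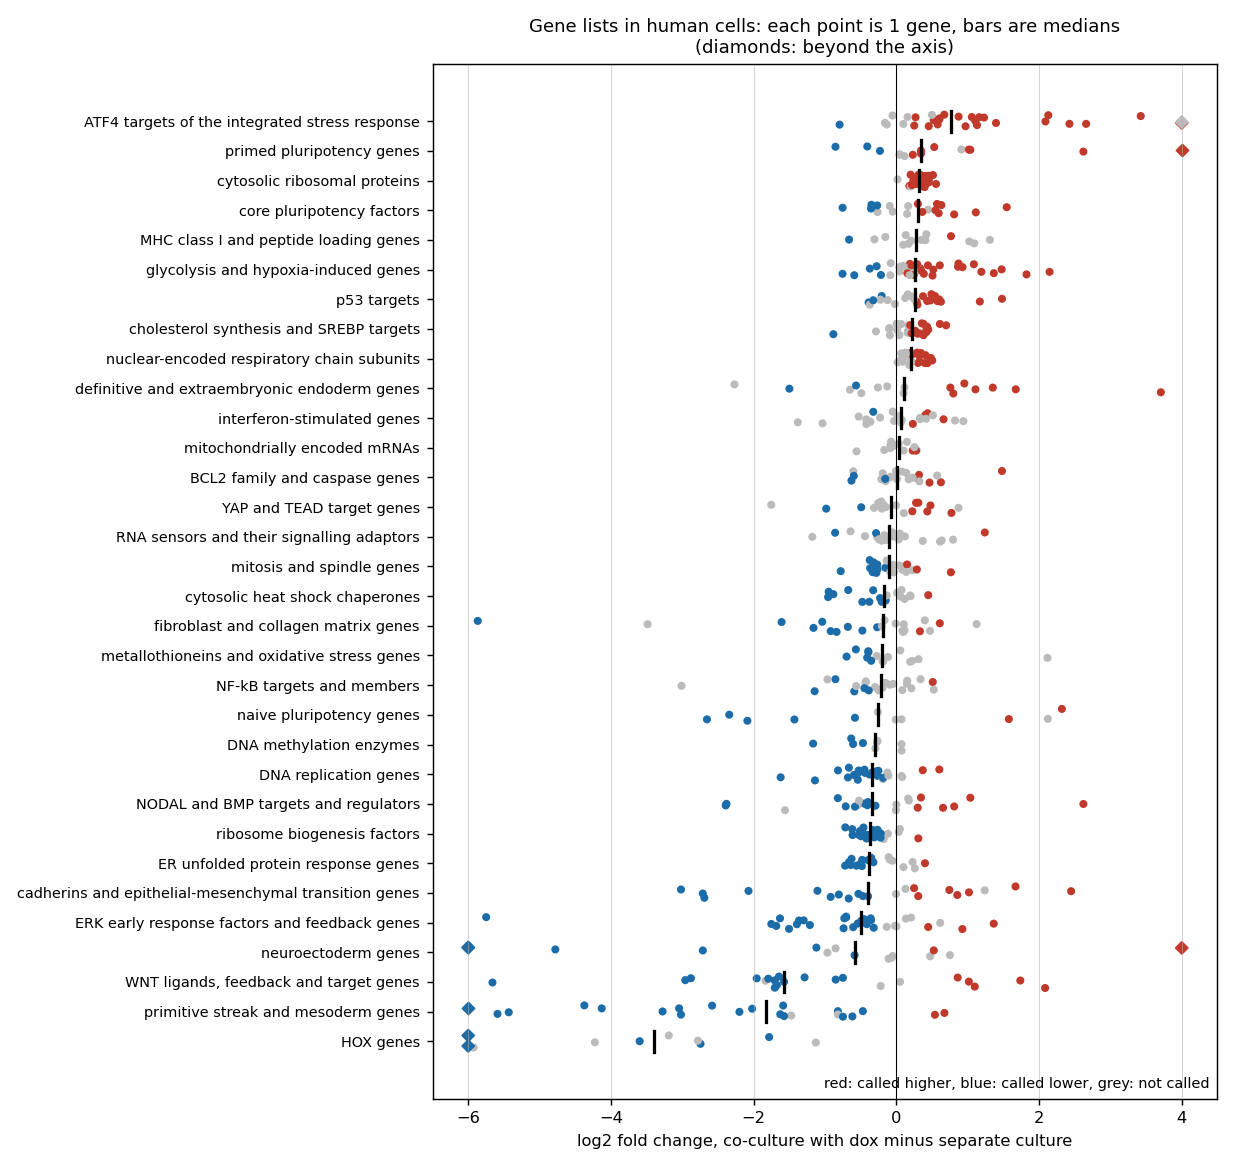
Log2 fold change between doxycycline co-culture and separate culture (horizontal axis) for the tested genes of 32 lists, ordered by median (black bars); each point is 1 gene, red if called higher, blue if called lower and grey otherwise, with diamonds for values beyond the axis. HOX, streak and WNT genes lie lowest, streak and WNT genes with medians of -1.82 and -1.57, and ATF4 targets highest, with a median of 0.77.

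Chaperones of the endoplasmic reticulum and cytosol moved the other way. HSPA5, the main chaperone of the endoplasmic reticulum, fell from 1168, 1154 and 1160 CPM to 694, 746 and 711 CPM, a log2 fold change of -0.72 ± 0.05. Of 20 genes of the unfolded protein response of that compartment, 13 fell and 1 rose, XBP1, named after its values were seen (115 to 154 CPM in the means); the median was -0.39. Without doxycycline 11 fell and 2 rose, and 15 of the 20 were not called between the co-cultures.

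HSPA8, a constitutive cytosolic chaperone, fell from 2429, 2416 and 2451 CPM to 1253, 1272 and 1296 CPM, and HSPH1, its exchange factor, from 283, 286 and 281 CPM to 144, 161 and 142 CPM. Without doxycycline both were lower still, at 709 to 810 CPM and 69.4 to 71.8 CPM. Of 18 cytosolic heat shock chaperones tested, 10 fell and 1 rose with doxycycline (median -0.18), and the direct test called 10 of them higher with doxycycline than without it.

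Hypoxia and glycolysis genes differed sharply between the co-cultures. DDIT4, an inhibitor of mTORC1 induced by hypoxia and stress, rose from 23.5, 27.2 and 27.6 CPM to 112, 115 and 126 CPM with doxycycline, a log2 fold change of 2.15 ± 0.08, and to 166, 166 and 185 CPM without it. NDRG1, a hypoxia-induced gene, was at 8.13, 7.73 and 8.44 CPM in separate cultures, at 20.0, 19.6 and 24.0 CPM with doxycycline and at 154, 164 and 197 CPM without it. PLOD2, a collagen lysyl hydroxylase, was at 59.6, 54.6 and 56.5 CPM, then 79.5, 87.7 and 76.5 CPM, then 539, 539 and 486 CPM in the same order. For NDRG1 and PLOD2 the doxycycline co-cultures lay close to separate culture on a scale set by the doxycycline-free co-cultures.

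Of 38 glycolysis and hypoxia-induced genes tested, 22 rose and 5 fell with doxycycline (median 0.27), whereas 37 rose and none fell without it (median 1.27). The direct test called 35 of the 38 lower with doxycycline and 1 higher. The exception was VEGFA, the angiogenic growth factor, at 23.2, 21.8 and 21.5 CPM in separate cultures, 62.2, 58.1 and 67.9 CPM with doxycycline and 43.8, 50.3 and 54.0 CPM without it. The summed level of the list was 16320 to 16440 CPM in separate cultures, 17220 to 18070 CPM with doxycycline and 32530 to 34680 CPM without it.

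Mitochondrially encoded mRNAs showed little difference from separate culture. Of the 13, 2 rose with doxycycline, MT-CO2 and MT-ND3, and none fell, with a median of 0.03. MT-CO2, a subunit of cytochrome c oxidase, stood at 5644, 5294 and 4877 CPM in separate cultures and at 7261, 6028 and 6168 CPM with doxycycline, a log2 fold change of 0.28 ± 0.08 (edgeR adjusted p = 0.0303). That call was lost in 5 settings, 4 of them fits without one library, with adjusted p up to 0.115. Without doxycycline MT-CO2 stood at 1463, 1819 and 1739 CPM, all 13 genes fell with a median of -1.90, and the direct test called all 13 higher with doxycycline.

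Nuclear-encoded respiratory chain subunits leaned upward in both co-cultures. Of 29, 13 rose and none fell with doxycycline (median 0.20), for example NDUFV1 of complex I (87.2 to 118 CPM in the means) and COX5A of complex IV (131 to 181 CPM). This count ran from 9 to 17 when single libraries were left out and was 20 when only genes at 10 CPM or more were tested.

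Genes for making ribosomes split by function. RPLP0, a protein of the large subunit stalk, rose from 2004, 2039 and 1996 CPM to 2725, 2856 and 2784 CPM, and 26 of 28 cytosolic ribosomal protein genes rose and none fell (median 0.32). Ribosome biogenesis factors, which work in the nucleolus, fell: NOP56, a core protein of box C/D ribonucleoproteins, went from 321, 322 and 341 CPM to 234, 222 and 239 CPM. Of 24 such factors 19 fell and 1 rose, FBL, named after its values were seen, and the median was -0.36. Without doxycycline 22 fell and 1 rose with a median of -1.11, and the direct test called 22 of 24 higher with doxycycline than without it.

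DNA replication genes followed the same order. POLA1, the catalytic subunit of DNA polymerase alpha, stood at 129, 132 and 130 CPM in separate cultures, 77.4, 72.2 and 75.6 CPM with doxycycline and 44.1, 40.1 and 52.3 CPM without it. Of 25 genes tested, 18 fell and 2 rose with doxycycline (median -0.34), and 22 fell and none rose without it (median -0.96). UHRF1, which guides the maintenance of DNA methylation, fell from 136, 130 and 136 CPM to 59.0, 59.9 and 63.3 CPM, and 4 of 9 DNA methylation enzymes fell and none rose. Of 24 mitosis genes 10 fell and 3 rose, including a fall of the kinesin CENPE (95.5, 99.4 and 96.9 CPM to 59.1, 57.2 and 56.4 CPM) and a rise of CDK1 (87.2, 89.3 and 78.1 CPM to 146, 157 and 136 CPM).

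**Figure D4:**
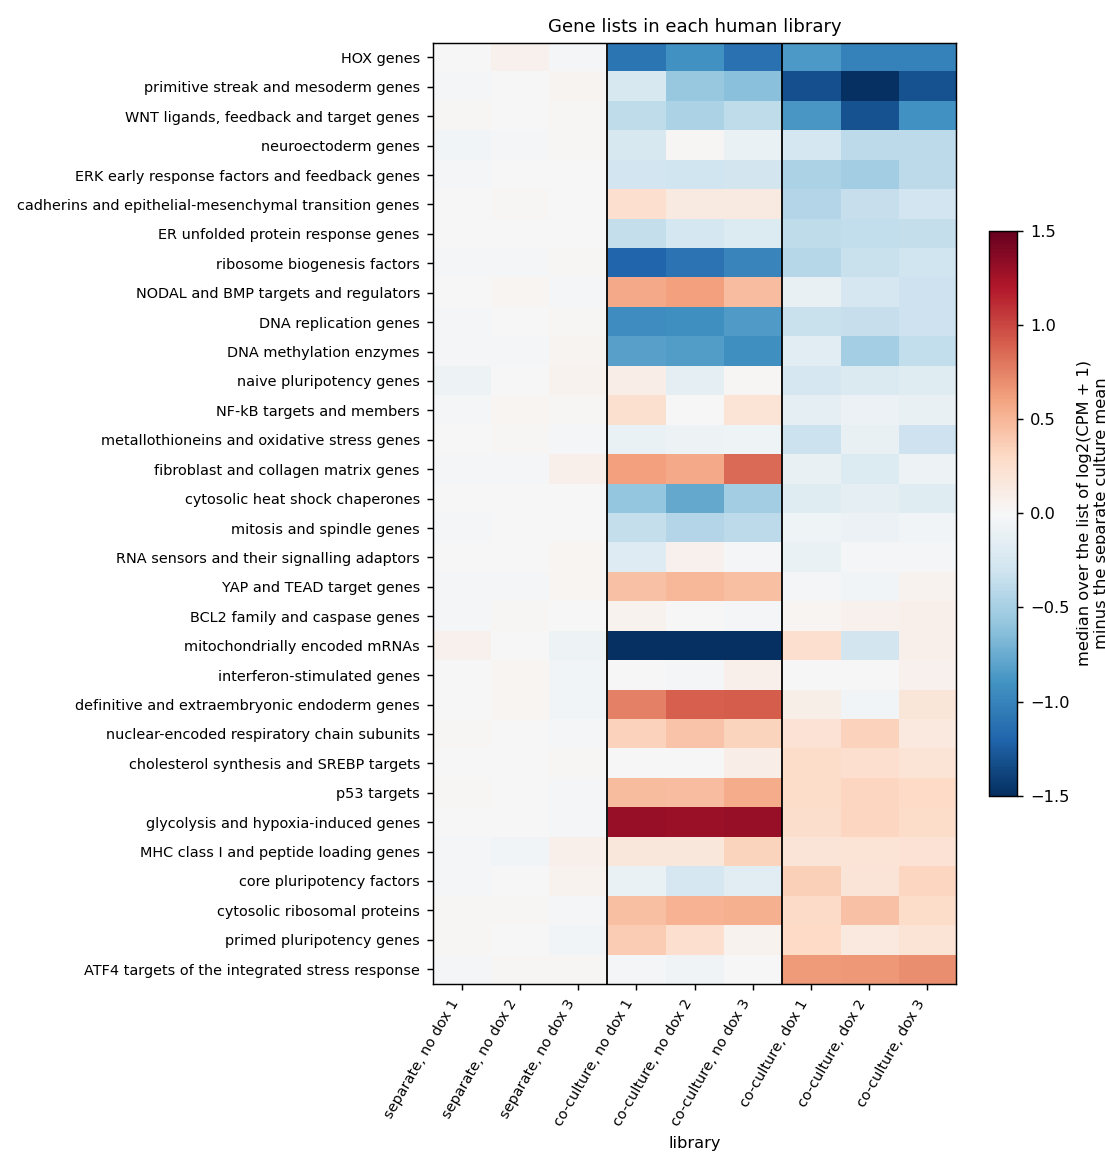
Median over each list of log2(CPM + 1) minus the separate culture mean (colour, blue low and red high) in each of the 9 human libraries (horizontal axis) for 32 gene lists (vertical axis). The 3 libraries of a group are alike for most lists; mitochondrially encoded mRNAs are dark blue in the doxycycline-free co-cultures alone, and streak genes are darkest in the doxycycline co-cultures.

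Cholesterol synthesis and SREBP target genes rose by small amounts, 15 of 27 higher and 1 lower with a median of 0.21. MVD, an enzyme of the mevalonate pathway, rose from 101, 98.7 and 106 CPM to 144, 161 and 169 CPM. The number of rising genes ran from 10 to 16 when single libraries were left out. Of 15 metallothionein and oxidative stress genes, none rose and 6 fell.

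Of 21 cadherins and genes of the epithelial-mesenchymal transition, 7 rose and 11 fell (median -0.40). CDH11, a mesenchymal cadherin, fell from 90.5, 91.2 and 91.5 CPM to 21.3, 22.4 and 22.3 CPM, and stood at 24.6, 22.3 and 21.6 CPM without doxycycline. ZEB2, a repressor of epithelial genes, fell from 33.2, 32.6 and 33.4 CPM to 5.51, 5.46 and 4.39 CPM. ESRP1, an epithelial splicing regulator, rose from 62.7, 66.8 and 65.6 CPM to 137, 132 and 133 CPM, against 82.3, 70.0 and 64.6 CPM without doxycycline. CDH11 and ZEB2 were not called between the co-cultures, and ESRP1 was (log2 difference 0.87 ± 0.09).

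Matrix genes differed in direction between the co-cultures. COL1A2, a chain of type I collagen, stood at 313, 313 and 312 CPM in separate cultures, 145, 141 and 141 CPM with doxycycline and 372, 362 and 373 CPM without it. FN1, fibronectin, was at 452, 447 and 478 CPM, then 247, 219 and 273 CPM, then 501, 502 and 514 CPM. Of 22 fibroblast and matrix genes tested, 9 fell and 2 rose with doxycycline (median -0.18), while 15 rose and 1 fell without it (median 0.74). The 2 that rose were TAGLN and COL5A2, the latter named after its values were seen.

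COL1A1, the other chain of type I collagen, was at 151, 146 and 163 CPM in separate cultures and 134, 111 and 142 CPM with doxycycline, without overlap. Its log2 fold change of -0.27 ± 0.08 (edgeR adjusted p = 0.0386) lost its call in 7 settings, 4 of them fits without one library, with adjusted p up to 0.136. Of 18 YAP and TEAD targets 6 rose and 2 fell, among them CCN2, a secreted matrix protein, which rose from 225, 223 and 213 CPM to 391, 367 and 390 CPM.

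Of antiviral defence genes, 9 of 25 RNA sensors and adaptors and 10 of 26 interferon-stimulated genes were among the 10091 genes. MAVS, the mitochondrial adaptor of cytosolic RNA sensors, stood at 63.8, 77.1 and 76.6 CPM in separate cultures and at 67.4, 62.7 and 66.4 CPM with doxycycline, and the groups overlapped. Its log2 difference was -0.17 ± 0.08 (edgeR adjusted p = 0.139), and it passed the test in 1 of the other settings, without replicate 1 of the separate cultures (adjusted p = 0.0307). Of 20 RNA sensors and adaptors tested, 2 fell, the kinases IKBKE and TBK1, and 1 rose, DHX58, which lay under 10 CPM and is named after its values were seen.

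ISG15, an interferon-induced ubiquitin-like protein, was at 11.2, 11.3 and 9.71 CPM in separate cultures and at 12.4, 16.3 and 12.3 CPM with doxycycline. These groups did not overlap, but the log2 difference of 0.33 ± 0.14 missed the threshold (edgeR adjusted p = 0.111; 0.0349 when only genes at 10 CPM or more were tested). Of 23 interferon-stimulated genes tested, 4 rose and 1 fell (median 0.06), beside 28.4% of all genes tested that were called. Among the 10 of the list that belonged to the 10091 genes, 4 rose and 1 fell (median 0.28), beside 49.1% called of the 10091. Those that rose were BST2, IFITM1, IFITM2 and IFITM3, and HERC5 fell; IFITM3 and HERC5 are named after their values were seen. IFITM1, a membrane protein that blocks virus entry, rose from 370, 370 and 360 CPM to 484, 486 and 509 CPM and stood at 1126, 1129 and 1121 CPM without doxycycline. Of 14 MHC class I genes 1 rose and 1 fell, and of 24 NF-kB targets and members 1 rose and 5 fell. The last count was 3 without replicate 1 or 2 of the doxycycline co-cultures or replicate 2 of the separate cultures, and 2 without replicate 3 of the separate cultures.

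Targets of p53 leaned upward, with 12 of 24 higher and 3 lower (median 0.27). PMAIP1, which encodes the pro-apoptotic protein NOXA, rose from 86.0, 90.5 and 84.2 CPM to 242, 261 and 237 CPM, a log2 fold change of 1.48 ± 0.06, and stood at 219, 231 and 205 CPM without doxycycline. CDKN1A, the cell cycle inhibitor p21, rose from 38.2, 36.6 and 35.7 CPM to 55.1, 53.8 and 54.5 CPM, and to 82.8, 89.2 and 94.3 CPM without doxycycline. PMAIP1 was not called between the co-cultures (log2 difference 0.15 ± 0.08, edgeR adjusted p = 0.208), and CDKN1A was lower with doxycycline. Of 23 BCL2 family and caspase genes tested, 5 rose and 3 fell.

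The question of what stays changed when the mouse cells had doxycycline was addressed by counting genes that differed from separate culture in each co-culture. Both comparisons share the 3 separate cultures, so the counts describe these libraries and are not independent of each other. Without doxycycline 6773 of the 10091 genes differed from separate culture (67.1%, against 41.7% of all genes tested), 2610 higher (25.9%, against 20.0% of all genes tested) and 4163 lower (41.3%, against 21.7%), with 450 and 756 of them at least 2-fold. Between the co-cultures 4109 of the 10091 differed (40.7%, against 23.0% of all genes tested). With doxycycline 2302 were higher (22.8%, against 11.2% of all genes tested) and 1807 lower (17.9%, against 11.8%). Over all genes tested the balance ran the other way, with 2703 higher and 2845 lower.

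Of the 1979 genes higher with doxycycline, 1427 were also higher without it, which is 72.1% of the first list and 54.7% of the second. Of the 2972 lower genes, 2423 were also lower without it, 81.5% of the first list and 58.2% of the second. Beside these shares, 25.9% of the 10091 genes were higher and 41.3% lower without doxycycline. The overlaps here and below were not counted over all genes tested, so they have no background share. As the separate cultures are shared, they are a description only. Among the genes changed in 1 direction in both, 800 higher and 1299 lower genes were not called between the co-cultures, 583 and 1031 lay less far from separate culture with doxycycline, and 44 and 93 lay further. A further 471 higher and 419 lower genes were called with doxycycline alone and 1053 higher and 1659 lower genes were called without doxycycline alone. Opposite directions were called for 81 genes higher and 130 lower with doxycycline.

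Genes that stayed higher by about the same amount included GNA14, a G protein alpha subunit, at 3.85, 3.12 and 3.66 CPM in separate cultures, 14.1, 20.9 and 17.0 CPM with doxycycline and 21.3, 19.8 and 17.2 CPM without it. MUC3A, a membrane mucin, was at 20.5, 19.5 and 18.5 CPM, then 58.4, 56.4 and 61.5 CPM, then 72.5, 60.3 and 79.2 CPM in the same order. RAMP2, a receptor activity-modifying protein, was at 4.69, 5.05 and 3.92 CPM, then 11.7, 10.9 and 13.6 CPM, then 13.9, 13.04 and 11.96 CPM. KRTCAP3, CBX7, a Polycomb protein, SPSB3, CITED4 and TXNRD2, the mitochondrial thioredoxin reductase, rose by between 1.41 and 1.82 with doxycycline and between 1.32 and 1.93 without it on the log2 scale. All of these lay above separate culture in every co-culture library, and except for CBX7, which was somewhat higher without doxycycline, the ranges of the co-cultures overlapped. These genes were named for being called higher in both co-cultures and not called between them, so this pattern is no added support.

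The genes named for staying lower were CDX2, CDX1, WNT3A, WNT8A, RSPO3 and NKD1, with LRRC55 and EPOP. EPOP, a protein that binds Polycomb complex PRC2 in pluripotent cells, fell from 22.2, 23.3 and 20.9 CPM to 2.92, 3.47 and 2.73 CPM with doxycycline and 3.83, 3.59 and 4.62 CPM without it. WNT8A missed the threshold between the co-cultures narrowly (log2 difference -2.22 ± 0.70, edgeR adjusted p = 0.0529). For CDX2 the co-cultures held 0 to 0.512 CPM, too little to compare them.

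**Figure D5:**
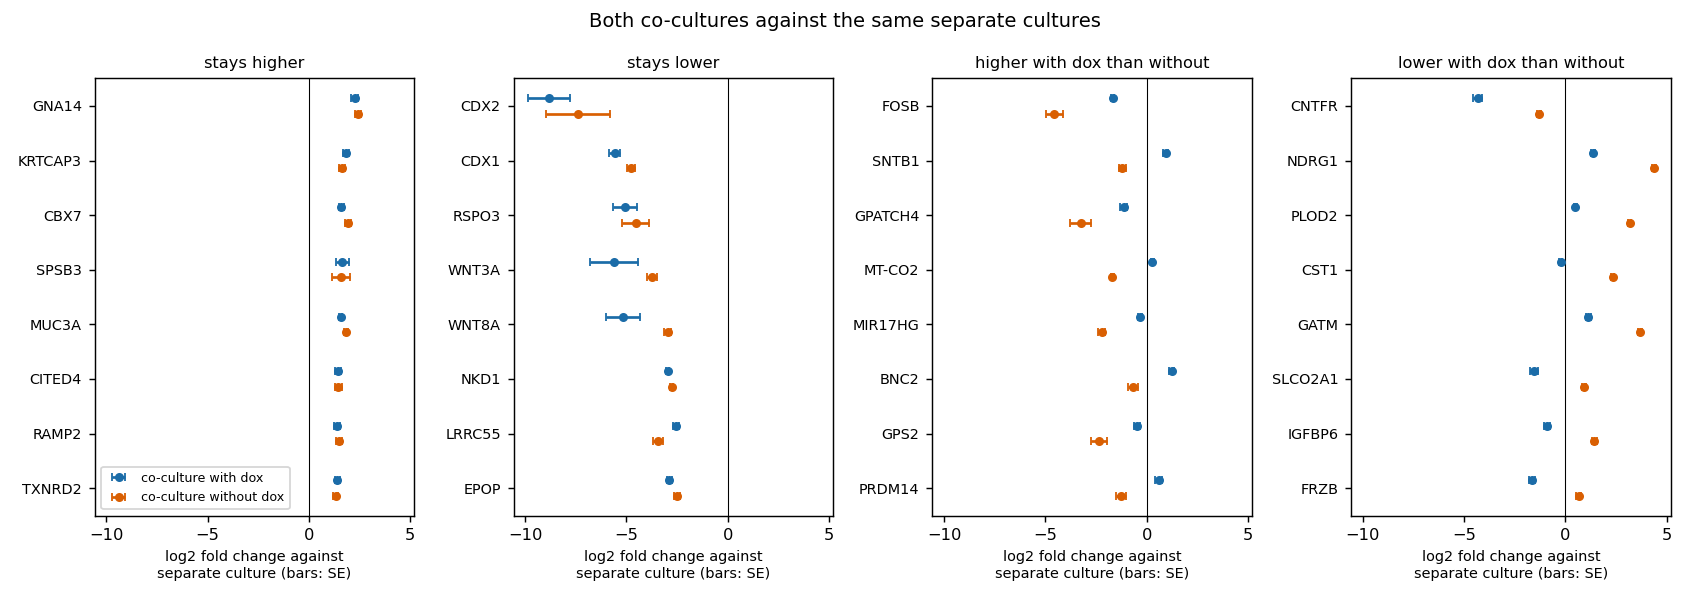
Log2 fold change against separate culture (horizontal axes, bars are SE) for the genes named for staying higher, staying lower, and being higher or lower with doxycycline than without; blue points are doxycycline co-culture and orange points doxycycline-free co-culture, measured against the same 3 separate cultures. Blue and orange lie on the same side of 0 in the first 2 panels and apart in the last 2. The rule that named the genes required both. NDRG1, in the last panel, is at 1.37 with doxycycline and 4.37 without.

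Other genes differed most between the co-cultures. CNTFR, the ciliary neurotrophic factor receptor, went from 28.9, 28.0 and 32.4 CPM in separate cultures to 1.00, 1.86 and 1.61 CPM with doxycycline but only to 11.0, 13.1 and 12.4 CPM without it. CST1, a cystatin, was at 113, 122 and 111 CPM, then 99.6, 104 and 94.8 CPM, then 541, 613 and 623 CPM in the order separate, with and without doxycycline. GATM, the first enzyme of creatine synthesis, was at 9.07, 9.63 and 7.67 CPM, then 21.8, 20.3 and 16.5 CPM, then 125, 116 and 106 CPM. SLCO2A1, a prostaglandin transporter, and IGFBP6 fell with doxycycline (log2 fold changes of -1.54 ± 0.19 and -0.91 ± 0.13) and rose without it (0.90 ± 0.10 and 1.41 ± 0.12).

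On the other side, SNTB1, a syntrophin of the membrane skeleton, rose from 7.82, 7.61 and 8.25 CPM to 14.3, 17.3 and 14.4 CPM with doxycycline and fell to 3.02, 3.28 and 4.19 CPM without it. BNC2, a zinc finger factor, rose from 4.58, 4.39 and 5.48 CPM to 11.7, 10.7 and 12.03 CPM and stood at 2.77, 2.45 and 4.13 CPM without doxycycline. MIR17HG, the host transcript of the miR-17 cluster, was at 25.4, 28.9 and 22.9 CPM, then 19.9, 22.1 and 20.5 CPM, then 4.69, 7.25 and 4.94 CPM. GPATCH4 and GPS2 likewise lay between separate culture and doxycycline-free co-culture. Against separate culture, the calls with doxycycline of MIR17HG and GPS2 were lost in 6 and 5 settings, with edgeR adjusted p up to 0.17 and 0.34, and those of CST1 and GPATCH4 in 2 and 1.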

How the data were processed

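RNA of human and mouse pluripotent cells in separate culture or co-culture was sequenced; the human table of 9 libraries was used. The values are estimated counts per gene, which the authors made from their reads and deposited as whole numbers, not scaled between libraries. The tools in the submitters' processing notes are StringTie 2.1.7, HISAT2 2.1.0, DESeq2 1.38.3 and Trim Galore 0.6.10, with builds GRCh38 and GRCm39 and no roles. The sources used here do not state the counting settings or how species were separated, so genes with paralogs or overlapping neighbours are uncertain.

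Groups came from the sample labels. Genes passing edgeR's filterByExpr over the 9 human libraries (24165) were tested with edgeR 4.0.16 (R 4.3.3, limma 3.58.1): TMM scaling, robust quasi-likelihood F test, 1 fit per comparison on its 6 libraries, Benjamini-Hochberg adjustment over all genes tested, threshold 0.05. Standard errors are the fold change over the square root of F. CPM used library totals of 117563318 to 157320157 counts. Alternatives were DESeq2 1.42.0, other scalings and filters, a fold of 1.5, a fit of 9 libraries, counts divided by 4, a replicate block and leaving out each library. The scripts were tested on simulated data in which 200 of 24153 genes were changed. At the threshold of 0.05, 9.32% of the edgeR calls and 29.8% of the DESeq2 calls were false. Of the 1.5-fold, 2-fold and 4-fold changes, edgeR recovered 50.7%, 74.6% and 93.9%. Far fewer genes were changed there than the 6860 called in the main comparison, so these shares need not hold for the real data. With counts divided by 4, any 2 libraries of a group differed by more than sampling noise alone would give (mean chi-square per gene 5.815 to 23.9). As the number of fragments behind a count is unknown, the true sampling noise is not fixed.

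Named genes were the 12 called genes with the largest fold change each way without overlap of libraries, the 3 with the smallest p of each of 33 lists, 9 fixed genes, the 8 each way that stayed changed most, and the 8 each way that differed most between co-cultures; unnamed-locus, antisense, pseudogene and small RNA symbols were left out of the largest. The genes, lists and tests were chosen with earlier results of these data known. Macrophage genes, with 3 tested and none called, and the members of lists near 0 CPM are not described further. Human promoter and protein sequences were not used here. A few genes that the rule names are not reported here.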

Additional observations from a re-analysis of the deposited data

Results flagged for a closer look

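For 89 of the 133 named genes, the level in doxycycline co-culture differed from that in doxycycline-free co-culture by the direct test (edgeR adjusted p under 0.05), so that the effect of co-culture relative to the same separate cultures differed between the 2 conditions. The values are log2 differences, with doxycycline minus without. Of the 89, 45 were higher with doxycycline and 44 lower, and some of these genes were named for the size of this very difference.

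Genes raised in both co-cultures, but less with doxycycline, were ALDOC (-1.10), APLN (-0.69), BST2 (-1.26), CCN2 (-0.33), CDKN1A (-0.73), DDIT4 (-0.58), ESPN (-0.76), FZD5 (-1.05), GATM (-2.59), GDF15 (-0.58), IFITM1 (-1.21), IFITM2 (-0.80), LEFTY1 (-1.29), NANOG (-0.25), NDRG1 (-3.04), OTX2 (-1.27), PLOD2 (-2.70), RPL10 (-0.41), RPLP0 (-0.28), SHISA2 (-2.03), SOX17 (-2.0) and TAGLN (-0.59). Genes raised in both and more with doxycycline were ASNS (1.60), CHAC1 (1.8), CLDN7 (0.50), FZD7 (0.46), GPR176 (1.36), PCK2 (1.06), STC2 (0.93) and VEGFA (0.32). These hold the ATF4 targets and the growth factor VEGFA.

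Genes lowered in both co-cultures, and further with doxycycline, included AMOTL2 (-0.25), APLNR (-1.11), CNTFR (-3.05), EVX1 (-2.12), ID2 (-0.84), ID4 (-0.82), KLF10 (-0.97), LEF1 (-1.63), MIXL1 (-1.34), MSX1 (-1.78), PCAT14 (-1.12), TBXT (-1.12) and TNFAIP2 (-0.72), most of them streak, posterior or BMP-responsive genes. Genes lowered in both but less with doxycycline were CCNE1 (0.26), CENPE (0.56), CENPF (0.57), DNAJA1 (0.62), DNMT1 (0.67), EGR1 (1.36), FOS (0.87), FOSB (2.83), GPATCH4 (2.09), GPS2 (1.84), HSPA5 (0.34), HSPA8 (0.73), HSPH1 (1.05), LAMB1 (0.28), MIR17HG (1.86), NODAL (0.24), NOP56 (1.36), NOP58 (0.88), POLA1 (0.70), RRM2 (0.32), SALL1 (0.43), SRXN1 (0.30), TBK1 (0.44), TDG (0.40), TXNRD1 (0.29), WDR43 (0.76) and WNT5B (0.45). Early response factors, chaperones, nucleolar factors and replication genes lie in this last group.

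Higher with doxycycline and not called without it were ATF4 (0.64), ESRP1 (0.87), FOXA2 (0.47), MVD (0.49) and SOX2 (0.46), and lower with doxycycline and not called without it were CASP8 (-0.49) and FN1 (-1.06). Opposite directions were called for BNC2 (1.86), MT-CO2 (1.93), MT-ND3 (0.71), PRDM14 (1.81) and SNTB1 (2.11), raised with doxycycline and lowered without, and for COL1A1 (-1.03), COL1A2 (-1.40), CST1 (-2.60), FRZB (-2.32), IGFBP6 (-2.36) and SLCO2A1 (-2.47), lowered with doxycycline and raised without.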

How the results depend on the processing

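No called named gene changed sign, but the balance of calls did, as given below. Testing against a fold of 1.5 left 199 of the 10091 genes higher and 293 lower in doxycycline co-culture (466 and 498 of all genes tested), 737 and 1314 in doxycycline-free co-culture (1899 and 1762), and 198 and 339 between the co-cultures (277 and 691). Leaving out single libraries gave 1482 to 1985 higher and 2354 to 2950 lower of the 10091 with doxycycline (2346 to 3056 and 2809 to 3724 of all tested), 2280 to 2572 and 3609 to 4135 without it (4030 to 4651 and 4274 to 5395), and 1591 to 2171 and 1279 to 1660 between the co-cultures (1784 to 2654 and 2047 to 2538). The count of 1784, against 2703, was that without replicate 1 of the doxycycline co-cultures; where an arm lost a library, the other libraries supplied the spread. In every other setting these counts stayed within 1.5 times.

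Upper quartile scaling moved the median of all genes from 0.02 to 0.08 with doxycycline and to 0.12 without it, and the share of called genes that were higher from 40.0% to 50.0% and from 38.5% to 49.2%. Over all genes tested it turned the balance from 3204 higher and 3656 lower to 3837 and 3036 with doxycycline, and from 4835 and 5244 to 5746 and 4221 without it. With tests limited to genes at 10 CPM or more, 2754 of the 10091 were higher and 2650 lower with doxycycline. Of the 133 named genes, 131 were called in the main comparison and 75 against a fold of 1.5, and none changed direction. In the other 15 settings 9 lost their call at least once: WNT3A, MIR17HG, GPS2, CST1, COL1A1, GPATCH4, MT-CO2, PRDM14 and TAPBP.

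Among the lists, counts with doxycycline that moved by over 1.5 times outside the fold test were the 5 HOX genes that fell (8 with DESeq2) and the 5 NF-kB genes that fell (3 with upper quartile scaling, library totals, no filter or 9 libraries); with tests limited to genes at 10 CPM or more, the rising endoderm genes went from 7 to 2 and the falling neuroectoderm genes from 6 to 1, as most of their members were no longer tested.

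Deviations from the group means correlated at -0.018 to 0.131 over the 9 same-numbered pairs and at -0.108 to 0.0343 between different numbers, and 13 of 18 comparisons put a library closest to its own number. This is a weak hint of pairing from the data, not the design, and was not taken as pairing. With the replicate number as a block, 2118 of the 10091 genes were higher and 3205 lower with doxycycline (3215 and 3815 of all tested). Without it the counts were 2642 and 4238 (4568 and 5128). Between the co-cultures they were 2670 and 2164 (3053 and 3153). The deposited values are estimated counts, so the number of fragments behind a value is unknown. Genes at 0 to 1 CPM in co-culture, such as CDX2 and WNT3A, have the least precise fold changes.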
